A study of Homo sapiens with 19 samples.

Results

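The naive pluripotency and KLF factors are 10 transcripts of the 33382 genes listed for each of 19 RNA-seq samples of human H1 embryonic stem cells (hESCs). They were found by gene symbol, and all 10 were listed in every sample. They comprise KLF2, KLF4, KLF5 and KLF17, the other transcription factors TFCP2L1, ESRRB, TBX3 and ZFP42, and the early-embryo genes DPPA3 and DPPA5. H1 is an established hESC line grown in the primed state, here on matrigel in mTeSR1 medium. The libraries came from WT H1 cells and from EZH1-/-, EZH2-/-, EED-/-, SUZ12-/- and EZH2-/-/EZH1-/- H1 cells, with 2 samples per line. A further 7 samples came from H1-EED-/-/EED-OE cells, which lack endogenous EED and carry a lentiviral EED transgene that doxycycline (DOX) turns on. This line was sampled once with DOX and once at each of days 8, 12, 16, 20, 24 and 28 after DOX was removed. Each deletion removed a functional domain through CRISPR/Cas9 and homologous recombination. The knockout samples carry codes of targeted clones or passages, so clone and genotype differ together. The title of 1 EED-/- sample joins 2 such codes, and whether it pools clones is not stated. Nothing in the labels says that samples of a line were separate cultures. The p-values below therefore measure only the spread between these samples. The title of the sample with DOX also carries a day 28 code.

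PRC2, the enzyme complex that places H3K27me3 on chromatin, uses EZH1 or EZH2 as its catalytic subunit and needs EED and SUZ12. The EED-/-, SUZ12-/- and EZH2-/-/EZH1-/- lines are called PRC2-null here, and WT H1, EZH1-/- and EZH2-/- are called retaining lines. Pluripotent cells occur in a naive state, like the inner cell mass before implantation, and in a primed state, like the epiblast after it. KLF factors are zinc-finger proteins that bind GC-rich or CACCC sequences. In mouse, KLF2, KLF4 and KLF5 act with ESRRB, TFCP2L1 and TBX3 in the self-renewing naive circuit downstream of LIF and WNT signals. In human cells KLF17, TFCP2L1, DPPA3 and DPPA5 are widely used as markers of the naive state, while ZFP42 (REX1) is also strongly expressed in primed hESCs. Several of these factors have other roles: KLF2 in endothelium, KLF4 and KLF5 in epithelia, and TBX3 in limb, heart and liver development.

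PRC2 targets are commonly CpG-rich promoters, so the sequences before the start sites of 5 genes are shown. KLF2, KLF4 and KLF5 were higher in the PRC2-null lines, and ZFP42 and DPPA5 were lower. Each line gives the 150 bases just before the annotated start, 5′ to 3′ on the gene's strand, from RefSeq (GRCh38.p14), with each CpG in capitals.
KLF2: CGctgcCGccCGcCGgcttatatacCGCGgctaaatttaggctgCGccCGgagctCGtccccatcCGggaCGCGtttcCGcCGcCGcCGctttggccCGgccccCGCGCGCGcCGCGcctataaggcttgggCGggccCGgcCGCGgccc
KLF4: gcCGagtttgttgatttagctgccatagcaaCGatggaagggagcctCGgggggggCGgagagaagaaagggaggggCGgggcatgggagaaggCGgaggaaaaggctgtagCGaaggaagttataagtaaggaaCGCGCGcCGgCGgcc
KLF5: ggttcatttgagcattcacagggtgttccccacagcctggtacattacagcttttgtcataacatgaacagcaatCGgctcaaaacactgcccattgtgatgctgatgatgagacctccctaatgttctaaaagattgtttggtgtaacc
ZFP42: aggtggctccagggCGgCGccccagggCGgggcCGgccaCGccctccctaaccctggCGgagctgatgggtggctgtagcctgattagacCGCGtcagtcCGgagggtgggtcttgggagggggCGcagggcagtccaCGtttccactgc
DPPA5: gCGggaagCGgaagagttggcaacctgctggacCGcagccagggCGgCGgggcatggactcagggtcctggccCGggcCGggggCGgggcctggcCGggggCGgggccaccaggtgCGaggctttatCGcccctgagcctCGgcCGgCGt
These are chr19:16324676-16324825 on the plus strand for KLF2 and chr9:107489770-107489919 on the minus strand for KLF4. They are chr13:73054826-73054975 on the plus strand for KLF5, chr4:187995621-187995770 on the plus strand for ZFP42 and chr6:73354277-73354426 on the minus strand for DPPA5. KLF2 held 27 CpG in these 150 bases, DPPA5 15, KLF4 12 and ZFP42 11. KLF5 held 1 at this first start.

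The RefSeq table held windows of 300 bases, with 250 before and 50 after the start, for 9 of the 10 genes (12 windows, with several starts for KLF5 and ESRRB). The median of all 34943 windows was 14 CpG. KLF2 had 49 CpG, more than 98.4% of all windows, TFCP2L1 had 43 and KLF4 had 33 (82.8%). The second start of KLF5 had 37 (88.7%), against 4 (24.6%) at the first. ZFP42 had 24, DPPA5 20 and KLF17 18. DPPA3 had 6 and the ESRRB windows 4, 5 and 8. CpG-rich windows were present both in genes that rose (KLF2, KLF4) and in TFCP2L1, which passed no test. The KLF-binding letters CACCC (or GGGTG on the other strand) were found in 59.8% of all windows. KLF17 had 6 matches, ZFP42 and the third ESRRB window 4 each, the second KLF5 and second ESRRB windows 2 each, and the other windows 1 each, except those of KLF2 and KLF4, which had 0. GGCGCC (its own reverse complement) occurred in 19.2% of all windows and here only in ZFP42, and the octamer ATGCAAAT (or ATTTGCAT) in 1.77% and in 0 of the 12. TBX3 is named only.

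Values are TPM, transcript abundances that are scaled for transcript length and to a fixed sum per sample, so the depth of the libraries is unknown. A TPM above 0 was listed for 19117 to 23012 genes per sample. Of 3067 genes with a median of at least 50 TPM over the 12 samples of the lines, 8 were listed at 0 in at least 1 sample, so a value of 0 may be a failed estimate. The whole-gene level of the targeted genes did not check the labels. EED was 19.63 ± 3.3 TPM in WT H1 and 18.3 ± 5.73 in EED-/- cells (SD, n = 2). SUZ12 was 26.55 ± 1.9 in WT H1 and 21.85 ± 1.54 in SUZ12-/- cells (SD, n = 2). The deletions removed a domain, and whether this accounts for these levels was not tested. The paper itself checked its knockout lines by genomic PCR, qRT-PCR of the targeted genes and western blot. EZH1 was 14.0 ± 0.41 TPM in WT H1, 14.78 ± 3.24 in EZH1-/- and 8.07 ± 1.83 in EZH2-/-/EZH1-/- cells (SD, n = 2). In EZH2-/- cells, where EZH1 was not targeted, it was 8.82 ± 1.27 TPM (SD, n = 2). EZH2 was 56.72 ± 3.07 TPM in WT H1, 34.48 ± 17.62 in EZH2-/- and 25.66 ± 7.95 in EZH2-/-/EZH1-/- cells (SD, n = 2). It was also below WT H1 where it was not targeted, with means of 32.0 TPM in EZH1-/-, 25.87 in EED-/- and 15.43 in SUZ12-/- cells. In the inducible line EED was 108.54 TPM with DOX and 12.64 to 31.56 after withdrawal. The primed markers POU5F1, SOX2, NANOG, LIN28A, DNMT3B, TDGF1, ZIC2 and SFRP2 were all present in the retaining lines, with a summed level of 5967.9 to 6819.5 TPM, and had 147.0 to 475.2 TPM in the PRC2-null lines.

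Lines were compared with limma on log2(TPM + 1). Of the 10 genes, 8 passed the filter of at least 1 TPM in at least 2 of 12 samples, and KLF17 and ESRRB did not. A gene was called when its p, adjusted over the 19100 genes tested by the Benjamini-Hochberg method, was at most 1% and its fold change at least 3 (1.585 on the log2 scale). KLF2, KLF4, KLF5 and TBX3 rose and ZFP42 fell in each of the EED-/-, SUZ12-/- and EZH2-/-/EZH1-/- lines against WT H1. That is 4 of 8 called higher and 1 of 8 called lower in each line. Among all genes, 16.2% were called higher and 6.09% lower in EED-/- cells, 14.5% and 5.21% in SUZ12-/- cells, and 11.6% and 5.66% in EZH2-/-/EZH1-/- cells. KLF2 and TBX3 passed the filter only through the PRC2-null samples, since their highest retaining values were 0.62 and 0.24 TPM. Without the filter, 4 of the 10 genes were called higher and 1 lower in each line. The shares of all genes were then 10.6% higher and 3.97% lower in EED-/-, 9.51% and 3.39% in SUZ12-/-, and 7.51% and 3.67% in EZH2-/-/EZH1-/- cells. TFCP2L1, DPPA3 and DPPA5 were called in none of these 3 lines. In the mean of the PRC2-null lines against the mean of the retaining lines, 4 of 8 were called higher and 2 of 8, ZFP42 and DPPA5, lower, beside 13.5% and 5.09% of all genes. The median log2 fold change was 1.22 over the 8 genes and 0.29 over all genes in this contrast. Scaling by median ratios brought the median of all genes to 0.08 and left the same number of the 8 genes called in each direction. In EED-/- cells that scaling turned the 16.2% higher and 6.09% lower of all genes into 12.1% and 8.75%.

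TBX3, a T-box factor on chr12:114670255-114684175 (GRCh38.p14; ENSG00000135111), had the largest log2 fold change of the 8 genes. It was 0.05 and 0 TPM in WT H1, 0.24 and 0.08 in EZH1-/- cells, and 0.13 and 0.10 in EZH2-/- cells. It was 46.48 and 51.32 TPM in EED-/- cells, 75.95 and 79.95 in SUZ12-/- cells, and 71.98 and 33.07 in EZH2-/-/EZH1-/- cells. All 6 PRC2-null samples lay above all 6 retaining samples, which was so for 24.2% of all genes tested, and the EZH2-/-/EZH1-/- samples differed most from each other. The log2 fold change against WT H1 was 5.60 ± 0.33 (SE, limma, adjusted p = 5.408e-07) in EED-/- cells. It was 6.27 in SUZ12-/- cells (limma, adjusted p = 4.039e-07) and 5.60 in EZH2-/-/EZH1-/- cells (limma, adjusted p = 9.605e-07). Since its WT H1 level is near 0, this difference depends on the pseudocount, and a pseudocount of 0.1 raised it to as much as 9.32 in SUZ12-/- cells. In bulk RNA, more cells of a type and more transcript per cell cannot be told apart, for TBX3 as for the genes that follow.

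KLF5, at chr13:73054976-73077538 (ENSG00000102554), is a KLF factor of epithelia and of the early embryo. It was 1.33 and 1.24 TPM in WT H1, 0.56 and 1.85 in EZH1-/- cells, and 2.66 and 1.36 in EZH2-/- cells. It reached 29.90 and 40.20 TPM in EED-/- cells, 46.10 and 40.68 in SUZ12-/- cells, and 40.59 and 31.76 in EZH2-/-/EZH1-/- cells. The groups did not overlap, and the PRC2-null median of 40.4 TPM was 30.0 times the retaining median of 1.35. The log2 fold change was 3.97 ± 0.34 (SE) in EED-/- cells, 4.28 in SUZ12-/- cells and 4.01 in EZH2-/-/EZH1-/- cells (limma, adjusted p = 5.925e-06, 4.17e-06 and 8.47e-06).

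KLF4, at chr9:107484852-107489769 (ENSG00000136826), is a reprogramming factor that also acts in epithelia. It was 1.42 and 1.17 TPM in WT H1, 2.05 and 2.03 in EZH1-/- cells, and 3.19 and 2.55 in EZH2-/- cells. It was 9.18 and 7.25 TPM in EED-/- cells, 9.17 and 11.28 in SUZ12-/- cells, and 13.37 and 8.07 in EZH2-/-/EZH1-/- cells. The lowest PRC2-null sample lay above the highest retaining sample, and the ratio of the medians was 4.5. The log2 fold change was 2.00 ± 0.29 (SE) in EED-/- cells, 2.29 in SUZ12-/- cells and 2.32 in EZH2-/-/EZH1-/- cells (limma, adjusted p = 0.0002218, 9.856e-05 and 0.0001093).

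KLF2, at chr19:16324826-16328685 (ENSG00000127528), is a KLF factor of blood vessel lining and lymphocytes. It was 0.62 and 0 TPM in WT H1, 0.29 and 0.42 in EZH1-/- cells, and listed at 0 in both EZH2-/- samples. It was 12.33 and 5.33 TPM in EED-/- cells, 8.52 and 8.71 in SUZ12-/- cells, and 10.04 and 5.55 in EZH2-/-/EZH1-/- cells. The groups did not overlap, and the SUZ12-/- samples lay closest together. The log2 fold change was 2.85 ± 0.4 (SE) in EED-/- cells, 2.92 in SUZ12-/- cells and 2.74 in EZH2-/-/EZH1-/- cells (limma, adjusted p = 0.0001639, 0.0001554 and 0.0002867). When the EZH2-/-/EZH1-/- and WT H1 samples were fitted alone, KLF2 and KLF4 were no longer called (adjusted p = 0.01663 and 0.0158).

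In TPM the order of the 4 genes in the PRC2-null samples was TBX3 with a median of 61.65, KLF5 with 40.4, KLF4 with 9.18 and KLF2 with 8.62. The ranges of KLF4 (7.25 to 13.37) and KLF2 (5.33 to 12.33) overlapped, as did those of TBX3 (33.07 to 79.95) and KLF5 (29.9 to 46.1). Both KLF4 and KLF2 lay below both TBX3 and KLF5 in all 6 samples. In the retaining samples the order was KLF4 (median 2.04 TPM), KLF5 (1.35), KLF2 (0.14) and TBX3 (0.09), with overlapping ranges for neighbours.

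Several immediate early genes were higher in the PRC2-null lines, as were KLF2 and KLF4, which are themselves known as rapid-response genes. FOS, FOSB, JUN, JUNB, EGR1, ATF3, DUSP1 and IER2 were chosen after their values were seen, so no test is given. Their summed level was 114.1 to 322.2 TPM in the retaining samples and 654.0 to 1468.3 in the PRC2-null samples. FOSB was 0.26 to 0.69 TPM in the former and 8.76 to 25.8 in the latter, and FOS, JUN, JUNB, EGR1 and DUSP1 did not overlap either. Of all genes tested, 24.2% had all PRC2-null samples above all retaining samples. IER2 overlapped, with 78.9 to 180.6 and 75.3 to 173.5 TPM, as did ATF3, with 11.6 to 58.7 and 42.7 to 271.6. Their part in the KLF values was not tested.

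Markers of other cell types that express some of these factors moved as well. Their calls are for the mean of the PRC2-null lines, in which 13.5% of all genes were called higher and 5.09% lower. Of 7 endothelial markers, 5 were called higher in the mean of the PRC2-null lines (PECAM1, CDH5, VWF and TIE1 had the largest changes). Their summed level was 47.5 to 147.8 TPM in the retaining samples and 63.8 to 582.5 in the PRC2-null samples. Of 5 epithelial markers, KRT8, KRT18 and KRT19 were called higher (1427.9 to 1674.4 and 3976.3 to 10906.9 TPM). All 7 endoderm markers were called higher, led by APOA1, AFP, GATA4 and SOX17 (5.03 to 15.1 and 925.5 to 17114.9 TPM). Of 6 smooth muscle and mesenchymal markers, 5 were called higher, led by COL3A1, ACTA2, COL1A1 and DCN (218.0 to 632.9 and 7408.7 to 16858.9 TPM). Of 7 trophoblast and amnion markers, 6 were called higher, led by TFAP2A, GATA3, KRT7 and VTCN1, and GABRP fell, so the summed levels overlapped (181.8 to 459.6 and 212.8 to 443.7 TPM). No marker in these lists was listed at 0 in all retaining or all PRC2-null samples. Their part in the values of KLF2, KLF4, KLF5 and TBX3 was not tested.

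TFCP2L1, a grainyhead-related factor of the naive circuit at chr2:121216587-121285202 (ENSG00000115112), was low throughout. It was 1.00 and 1.14 TPM in WT H1, 1.73 and 2.28 in EZH1-/- cells, and 2.24 and 1.13 in EZH2-/- cells. It was 0.56 and 0.84 TPM in EED-/- cells, 0.98 and 1.36 in SUZ12-/- cells, and 2.21 and 1.74 in EZH2-/-/EZH1-/- cells. The groups overlapped, and the mean log2 difference of PRC2-null from retaining lines was -0.19 (95% interval -0.55 to 0.16, limma, adjusted p = 0.3023).

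ESRRB, an orphan nuclear receptor at chr14:76310777-76501837 (ENSG00000119715), was 0.32 to 0.81 TPM in the retaining samples and 0.13 to 0.65 in the PRC2-null samples. Their medians were 0.54 and 0.53 TPM. KLF17, at chr1:44043927-44135140 (ENSG00000171872), was listed at 0 in 11 of the 12 samples and at 0.04 TPM in 1 EZH1-/- sample. No fold is given for it.

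ZFP42, at chr4:187995771-188005246 (ENSG00000179059), is a zinc-finger factor related to YY1. It was 130.84 and 154.16 TPM in WT H1, 124.59 and 135.65 in EZH1-/- cells, and 143.89 and 151.45 in EZH2-/- cells. It was 33.66 and 17.83 TPM in EED-/- cells, 21.82 and 18.49 in SUZ12-/- cells, and 24.46 and 19.63 in EZH2-/-/EZH1-/- cells. All PRC2-null samples lay below all retaining samples, which held for 13.3% of all genes tested. The log2 fold change was -2.49 ± 0.26 (SE) in EED-/- cells, -2.76 in SUZ12-/- cells and -2.64 in EZH2-/-/EZH1-/- cells (limma, adjusted p = 2.585e-05, 1.348e-05 and 2.466e-05). ZFP42 kept 0.148 of its retaining median. The 8 primed markers were all called lower in the mean of the PRC2-null lines, beside 5.09% of all genes. Their median log2 fold change was -4.54. POU5F1, which was 2428.15 to 3456.09 TPM in the retaining samples, was 3.62 to 149.79 in the PRC2-null samples.

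DPPA5, a small RNA-binding protein of pluripotent cells at chr6:73353063-73354276 (ENSG00000203909), was listed at 0 in all 6 PRC2-null samples. It was 1.36 and 1.77 TPM in WT H1, 5.56 and 5.22 in EZH1-/- cells, and 1.61 and 7.59 in EZH2-/- cells. The groups did not overlap. In the mean of the PRC2-null lines against the retaining lines the log2 difference was -2.09 ± 0.25 (SE, limma, adjusted p = 2.475e-05). Against WT H1 alone the difference was -1.35 in each PRC2-null line and was not called (limma, adjusted p = 0.02281 to 0.02637). Because the lower level is 0, these differences depend on the pseudocount, and a pseudocount of 0.1 brought the mean difference to -5.0.

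DPPA3 (STELLA), a maternal and germ-cell protein at chr12:7711433-7717559 (ENSG00000187569), was 2.71 and 3.47 TPM in WT H1, 2.40 and 2.54 in EZH1-/- cells, and 2.12 and 3.19 in EZH2-/- cells. It was 6.04 and 5.49 TPM in EED-/- cells, 4.75 and 3.88 in SUZ12-/- cells, and 7.37 and 2.31 in EZH2-/-/EZH1-/- cells. All PRC2-null samples except the lowest EZH2-/-/EZH1-/- sample lay above the retaining samples. The mean log2 difference was 0.63 ± 0.23 (SE) and was not called (limma, adjusted p = 0.02812). GENCODE v44 names 11 DPPA3 pseudogenes, 3 of DPPA5, 4 of KLF2 and 1 each of KLF4 and KLF17. None is among the genes listed here, so reads of such copies may have been assigned to these genes.

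**Figure D1:**
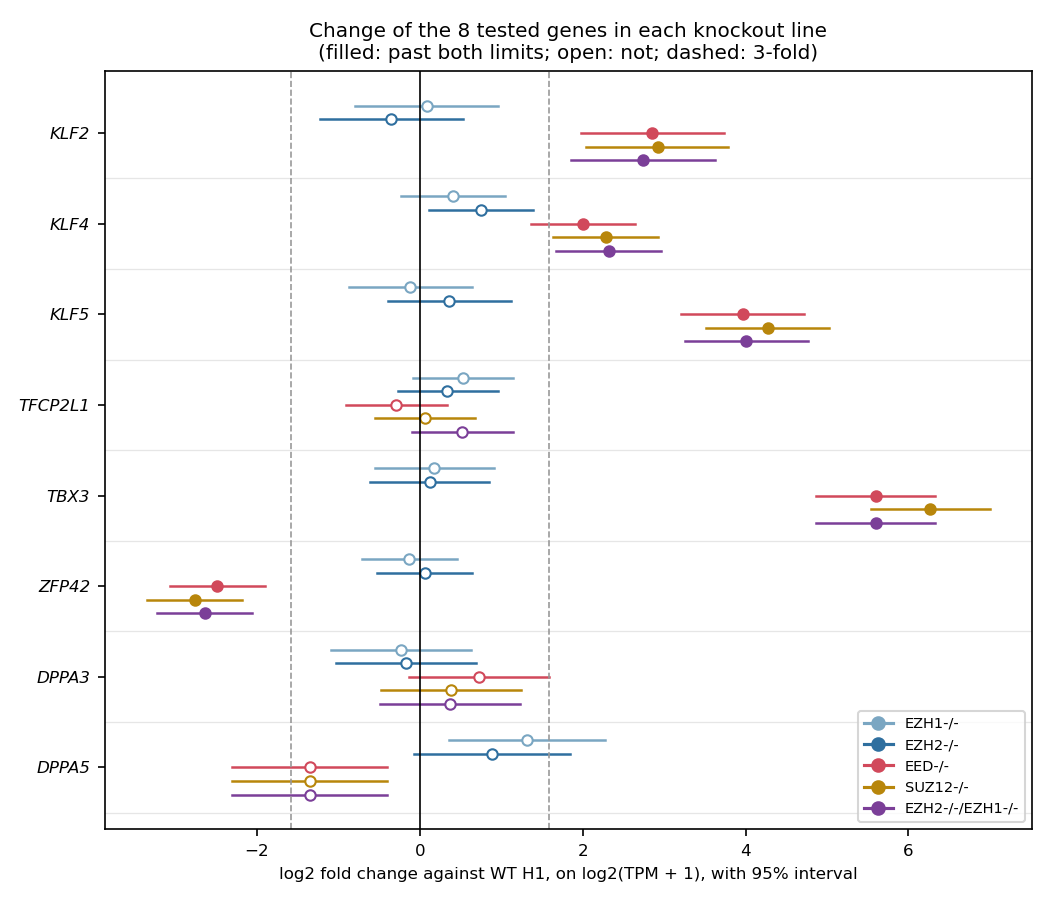
Log2 fold change of the 8 tested genes against WT H1 on the log2(TPM + 1) scale, with 95% intervals from limma, in the 5 knockout lines. Filled points passed both limits. KLF2, KLF4, KLF5 and TBX3 lie right of the 3-fold line and ZFP42 left of it in the PRC2-null lines, and no point of EZH1-/- or EZH2-/- cells is filled.

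With a single enzyme deleted, 0 of the 8 genes were called by limma in EZH1-/- or in EZH2-/- cells against WT H1. Among all genes, 0.0576% were called higher and 0.0419% lower in EZH1-/- cells, and 0% higher and 0% lower in EZH2-/- cells. At an unadjusted p under 0.05 there were 3058 genes in EZH1-/- cells, among them DPPA5, and 1110 in EZH2-/- cells, among them KLF4. DPPA5 differed by 1.32 on the log2 scale in EZH1-/- cells (95% interval 0.36 to 2.28, limma, adjusted p = 0.1779). KLF4 differed by 0.75 in EZH2-/- cells (95% interval 0.11 to 1.39, limma, adjusted p = 0.7574). KLF5 differed from WT H1 by -0.12 in EZH1-/- cells (interval -0.87 to 0.64) and by 0.36 in EZH2-/- cells (interval -0.39 to 1.12). TBX3 differed by 0.18 (-0.55 to 0.91) and 0.12 (-0.61 to 0.85). These intervals lie below the 3-fold limit for KLF5 and TBX3, but for DPPA5 they reach beyond it.

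The PRC2-null lines were also compared with one another, and 0 of the 8 genes were called by limma in any of the 3 pairs. Among all genes, 3.54% were called higher and 2.58% lower in SUZ12-/- than in EED-/- cells. The shares were 0.0314% and 0.0576% for EZH2-/-/EZH1-/- against EED-/- cells, and 3.32% and 1.14% for SUZ12-/- against EZH2-/-/EZH1-/- cells. In the fit of only the 4 samples of the last pair, the shares fell to 0.0157% and 0%. TBX3 was higher in SUZ12-/- than in EED-/- cells by an estimate of 0.66 on the log2 scale (95% interval -0.07 to 1.39, limma, adjusted p = 0.1928), and the estimate against EZH2-/-/EZH1-/- cells was also 0.66 (adjusted p = 0.2197). The unadjusted p was under 0.05 in 1 case, TFCP2L1 in EZH2-/-/EZH1-/- against EED-/- cells, with a difference of 0.81 (95% interval 0.19 to 1.42, limma, adjusted p = 0.1646).

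The inducible line shows the order of these changes, with 1 sample per time point and hence no test. With DOX, KLF5 was 1.26 TPM, TBX3 0.14, KLF2 0.91 and KLF4 2.98, against means of 1.28, 0.02, 0.31 and 1.3 TPM in WT H1. ZFP42 was 88.47 TPM with DOX, below the WT H1 mean of 142.5, DPPA3 was 1.10 and DPPA5 0.73.

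TBX3 was the earliest to differ. It was 3.18 TPM at day 8, 5.70 at day 12 and 6.66 at day 16, then 53.17 at day 20, 50.82 at day 24 and 56.88 at day 28. The last 3 samples lie in the range of the PRC2-null lines. At day 8, TBX3 was the 1 gene of the 10 past 3-fold on the log2(TPM + 1) scale above the sample with DOX, and 0 were below it by that much. Among all genes, 2.78% were past 3-fold higher and 0.589% lower at day 8.

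KLF5 increased in a more graded way. It was 2.86 TPM at day 8, 8.75 at day 12, 18.14 at day 16, 30.15 at day 20, 27.37 at day 24 and 56.69 at day 28. At days 12 and 16 the genes past 3-fold higher were KLF5 and TBX3 (2 of 10 each), with 0 lower. The shares of all genes were 2.84% higher and 0.4% lower at day 12, and 3.81% and 0.894% at day 16. At day 16 the summed primed markers were 6085.3 TPM, against 5620.7 with DOX. POU5F1 makes up most of that sum: POU5F1, NANOG, TDGF1 and ZIC2 were higher at day 16 than with DOX, and SOX2, LIN28A, DNMT3B and SFRP2 were lower. Some endoderm markers rose along with KLF5 and TBX3 in these samples. The summed level of all endoderm markers was 5.05 TPM with DOX, 7.83 at day 8, 25.6 at day 12 and 86.5 at day 16. GATA4 alone was 0.52, 3.67, 17.72 and 51.29 TPM, and SOX17, FOXA2 and GATA6 were also higher at day 16 than with DOX. AFP was 2.97 TPM with DOX and 0.78 at day 16, APOA1 1.15 and 0.89, and HNF4A 0 and 0.2. Among trophoblast and amnion markers, TFAP2A was 0.11 TPM with DOX and 3.68, 3.03 and 1.7 at days 8, 12 and 16. KRT7 was 13.75 TPM with DOX and then 45.69, 21.91 and 8.04. GATA3 rose from 0.22 TPM with DOX to 2.72 at day 16, and GABRP from 102.86 to 324.81. CGA stayed at 0, and CDX2 was 0.06 TPM with DOX, 0 at day 8 and 0.76 at day 16. VTCN1 was 0 TPM with DOX, 0.84 at day 8 and 0 at day 16. The part of these markers in the KLF5 and TBX3 values was not tested.

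KLF2 and KLF4 were highest at day 20. KLF2 was 0.66, 0.47 and 1.58 TPM at days 8, 12 and 16, then 41.96 at day 20, 21.53 at day 24 and 20.31 at day 28. The last 3 values exceed all 6 PRC2-null samples, whose highest was 12.33 TPM. KLF4 was 6.50, 3.94 and 6.31 TPM at days 8, 12 and 16, then 44.20 at day 20, 3.77 at day 24 and 10.13 at day 28. Its day 20 value was 14.8 times that with DOX and above the highest PRC2-null sample, 13.37 TPM, whereas day 24 was back near the sample with DOX. At day 20, 4 of 10 genes were past 3-fold higher (KLF2, KLF4, KLF5 and TBX3) and 0 lower, beside 9.07% and 2.69% of all genes. Of the endothelial markers, PECAM1 was 0.1 TPM with DOX, 1.4 at day 20 and 32.16 at day 24, and CDH5 0.41, 1.36 and 36.39. TIE1, ERG and TEK were lower at day 20 than with DOX and higher at day 24. VWF was 0.57, 9.1 and 8.44 TPM, and KDR 38.46, 145.6 and 327.98. The part of these markers in the KLF2 values was not tested.

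The summed level of the immediate early genes named above was, like KLF2 and KLF4, highest at day 20. It was 354.8 TPM with DOX, 514.4, 197.9 and 514.1 at days 8, 12 and 16, 2359.0 at day 20, 1633.0 at day 24 and 944.1 at day 28. FOS was 1061.5 TPM at day 20 and FOSB 282.4, against highest PRC2-null values of 441.1 and 25.8. With DOX they were already 113.1 and 17.7 TPM, inside the PRC2-null ranges and above the highest retaining values of 30.6 and 0.69. JUN, JUNB, EGR1, ATF3 and DUSP1 with DOX lay below all PRC2-null samples. At day 16 FOS was 264.9 TPM and FOSB 22.5. JUN and EGR1 were also highest at day 20, but JUNB, DUSP1 and IER2 were highest at day 24 and ATF3 at day 28. The summed primed markers were 2694.0 TPM at day 20 and 422.4 at day 24. Whether the day 20 peak of KLF2 and KLF4 goes with the immediate early genes or with the day was not tested, and it rests on 1 sample.

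ZFP42 changed late. It was 81.24 TPM at day 8, 108.14 at day 12, 91.91 at day 16, 70.30 at day 20, 39.42 at day 24 and 16.84 at day 28. DPPA5 was 0.52, 0.38 and 0.42 TPM at days 8, 12 and 16 and was listed at 0 from day 20 on. DPPA3 lay between 0.27 and 1.84 TPM up to day 24 and was 17.02 TPM at day 28, 15.5 times the sample with DOX and above the highest PRC2-null sample, 7.37. At day 24, 3 of 10 genes were past 3-fold higher (KLF2, KLF5 and TBX3) and 0 lower, beside 12.9% and 4.67% of all genes. At day 28, 4 were higher (KLF2, KLF5, TBX3 and DPPA3) and 1 lower (ZFP42), beside 17.9% and 5.61%. KLF4, with a log2 difference of 1.48 at day 28, lay just under the limit of 1.585.

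TFCP2L1 ranged from 0.64 TPM at day 8 to 2.33 at day 20, and was 0.86 with DOX. ESRRB was 1.92 TPM with DOX, 2.87 at day 12 and 0.40 to 1.07 at the other days, so its highest value of all 19 samples came before the KLF genes were at their highest. KLF17 was listed at 0 except for 0.11 TPM at day 28.

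Other genes of these families and of the naive circuit were read from lists. Of 13 further KLF genes, 12 were tested, of which KLF6, KLF3 and KLF9 rose in the mean of the PRC2-null lines and KLF15 fell. Of all genes, 13.5% were called higher and 5.09% lower in that contrast. The log2 fold changes were 3.40 for KLF6, 1.80 for KLF3, 1.76 for KLF9 and -2.21 for KLF15 (limma, adjusted p at most 1%). KLF6, like KLF4 an immediate early KLF gene, was 4.2 to 10.48 TPM in the retaining samples and 42.51 to 197.95 in the PRC2-null samples. In the time course it was 4.97 TPM with DOX, 111.38 at day 20 and 198.74 at day 28. The median log2 fold change of the 12 was 0.76, against 0.29 for all genes.

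Of 22 further naive-associated genes, 14 were tested, of which NR0B1 rose and PRDM14, DPPA4, DPPA2 and SOX15 fell in the mean of the PRC2-null lines, beside 13.5% of all genes called higher and 5.09% lower. NR0B1 (DAX1), an orphan nuclear receptor, rose by a log2 fold change of 2.06, from 0.11 to 0.68 TPM up to 2.12 to 7.84. PRDM14, a repressor that guards the pluripotent state, had a log2 fold change of -4.48, and DPPA4 and DPPA2, partners on early-embryo promoters, had -4.28 and -3.54. DPPA4 was 450.14 to 670.68 TPM in the retaining samples and 11.55 to 57.67 in the PRC2-null samples. SOX15 had -1.98. In the retaining samples PRDM14 was 22.01 to 75.23 TPM, DPPA2 11.5 to 33.4 and SOX15 10.22 to 21.29. Like ZFP42, the genes that fell were thus expressed in the primed cells. Their fall is not a loss of expression restricted to the naive state. The other 9 tested were not called, and the median was -0.53.

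Of 9 LIF and WNT pathway genes, 3 rose and 0 fell in the mean of the PRC2-null lines against the retaining lines. Of all genes, 13.5% were called higher and 5.09% lower there. Against WT H1, 4 rose in EED-/-, 4 in SUZ12-/- and 2 in EZH2-/-/EZH1-/- cells, and 1 fell in each. The shares of all genes in these lines were 16.2%, 14.5% and 11.6% higher and 6.09%, 5.21% and 5.66% lower. The gene that fell was TCF7L1, a WNT-pathway repressor, with log2 fold changes of -2.11, -1.96 and -1.61 (limma, adjusted p = 4.578e-06, 8.184e-06 and 4.173e-05). The genes that rose in the mean contrast were the LIF receptor chains IL6ST, with a log2 fold change of 4.99, and LIFR, with 3.10, and the kinase JAK1, with 1.69. IL6ST was 0.86 to 3.42 TPM in the retaining samples and 31.38 to 161.93 in the PRC2-null samples, and LIFR 2.34 to 3.45 and 8.56 to 82.57. After DOX withdrawal LIFR was 2.67 TPM at day 16 and 27.35 at day 20. Of 7 relatives of single genes in the set, TBX2, the nearest paralog of TBX3, rose with a log2 fold change of 4.14 and the other 6 were not called. This was in the mean contrast, where 13.5% of all genes were called higher. TBX2 was listed at 0 in all retaining samples and was 8.48 to 28.47 TPM in the PRC2-null samples.

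**Figure D2:**
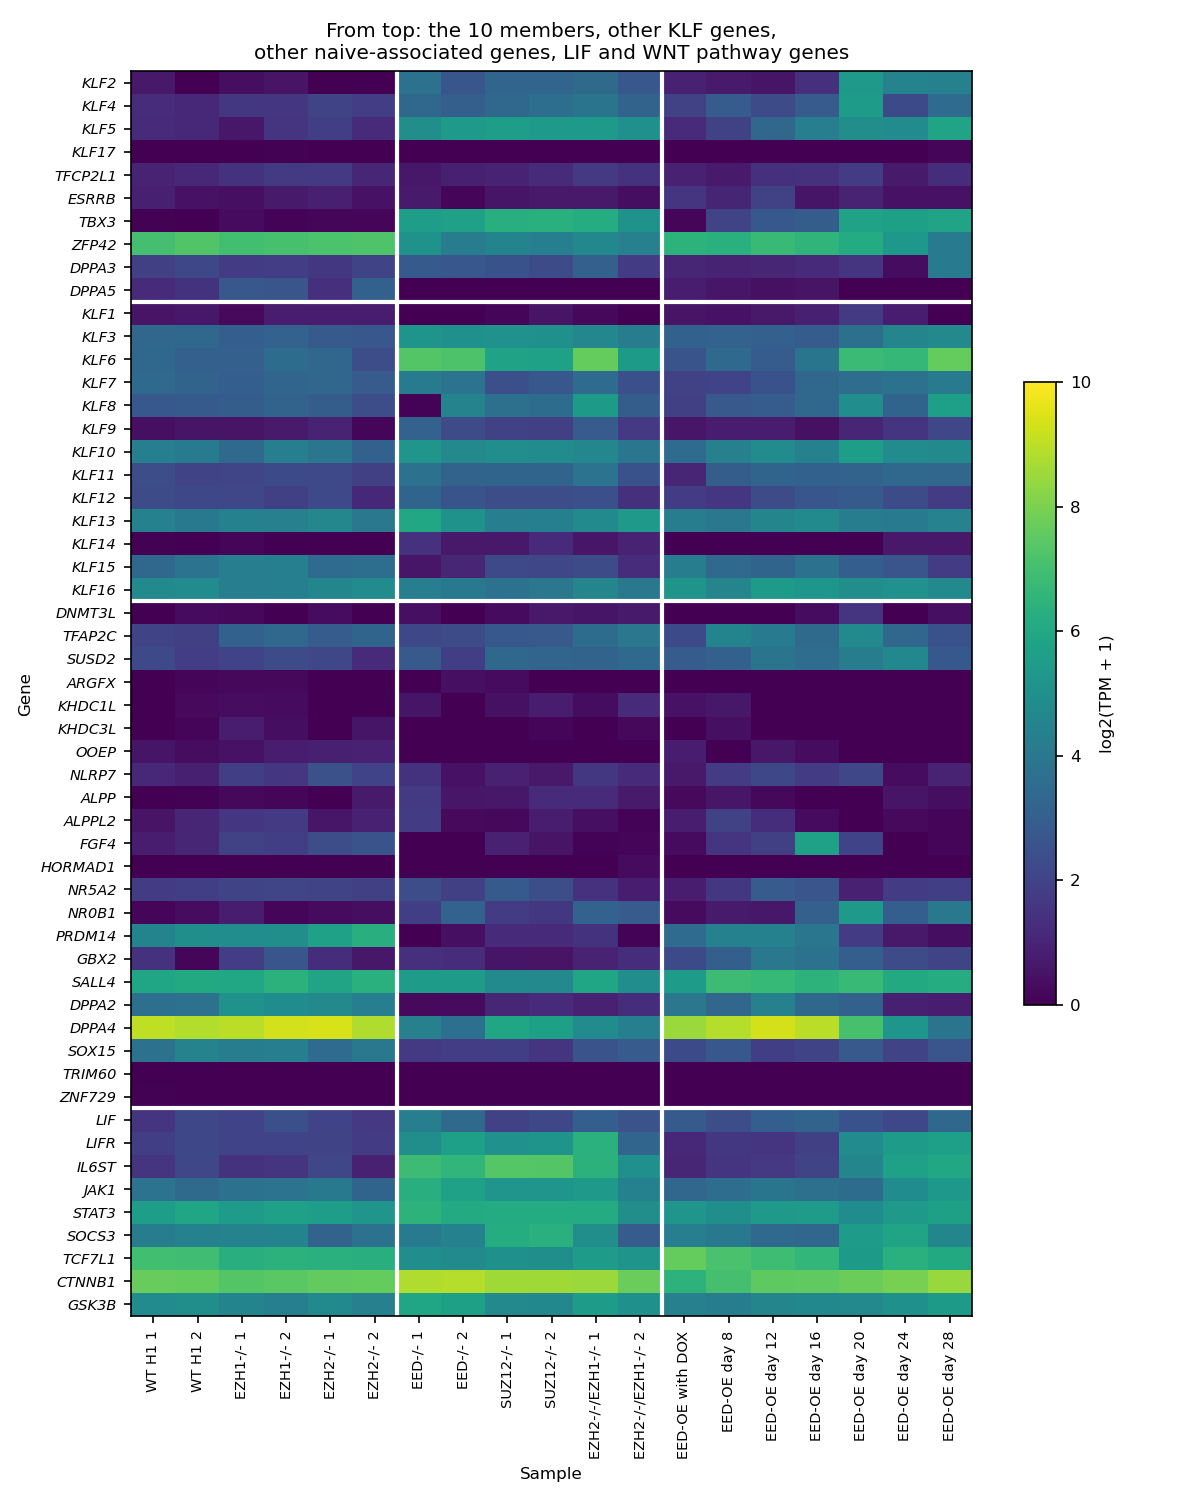
Expression as log2(TPM + 1) (colour) in all 19 samples (columns) of the 10 genes, 13 other KLF genes, 22 other naive-associated genes and 9 LIF and WNT pathway genes (rows). KLF6, IL6ST and LIFR are higher and DPPA4 and PRDM14 lower in the PRC2-null samples and late days, while KLF17 stays at or near 0 throughout.

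The genes most like each member were taken by Pearson correlation of log2(TPM + 1) over all 19 samples, among 14018 genes. The points share lines and genotypes, so r mainly reflects the split into groups and is given without a p. For TBX3 they were TFAP2A (r = 0.991), ZNF503 (0.989) and IFI16 (0.985). For KLF5, CCDC92 (0.979) and GATA4 (0.977) were among them. For KLF2 they were HLX (0.968), GATA3 (0.968) and ARHGAP24 (0.966), and for KLF4, HPGD (0.902) and IRX3 (0.902) were among them. For ZFP42 they were ZNF788 (0.981), CDC25A (0.969) and ADD2 (0.969). DPPA5 had RPRML (0.956), MRPS16 (0.934) and OR2A1-AS1 (0.932), and DPPA3 had lower values, ZNF552 (0.864), AKAP8 (0.861) and CRB3 (0.856).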

How the data were processed

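RNA-seq was measured in 19 samples of H1-derived lines. The authors prepared TruSeq RNA libraries, used Bowtie2 and RSEM on human mRNA sequences (GRCh38), and deposited TPM for 33382 genes per sample. RSEM divides reads shared by similar transcripts, and TPM has a fixed sum, so a large rise of some genes lowers the others. Columns summed to 999999.2 to 1000001.0 TPM, so counts and depth could not be recovered and no counting interval is given. The study describes a test of raw counts, which was replaced here, because the deposited values are TPM, by limma 3.58.1 in R 4.3.3 on log2(TPM + 1) with the same thresholds (FDR 1%, fold change 3). This scale understates changes of genes with low expression. The fit used the 12 samples of the 6 lines with 1 mean per line, eBayes with trend and robust options and 6 residual degrees of freedom, on genes with at least 1 TPM in at least 2 samples, and was tested on simulated data. Time points have 1 sample each and were compared by fold only, over 19011 genes with at least 1 TPM in any of the 7 samples. The members and lists were chosen with earlier results of these data known. All 10 members are named. From each list, called genes in the contrast of the PRC2-null with the retaining lines are named, at most the 4 with the largest change per direction. The 3 most correlated genes are named for members with at least 5 TPM in at least 2 samples, except that some are not reported here. Genes were joined by Ensembl identifier, because 33 names differed between files, none of them of a member. The promoter and coordinate tables are RefSeq (GRCh38.p14). Alternatives were the pseudocount (0.1), no filter, median-ratio scaling, a replicate block, FDR 5% without a fold limit, plain eBayes, fits of 4 samples, leaving out each sample, and WT H1 as the time course reference. Python 3.11.15 was used for the tables. No samples were left out.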

Additional observations from a re-analysis of the deposited data

How the results depend on the processing

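Of 429 recalculated single-gene values under the alternatives, 426 kept their direction and their side of the limits and 0 reversed. The exceptions were KLF2 and KLF4 in EZH2-/-/EZH1-/- cells, which missed the limit of 1% in the fit of those 4 samples, where 2 members were called higher, and DPPA3 in the mean contrast, called at FDR 5% without a fold limit. With a pseudocount of 0.1, and at FDR 5% without a fold limit, 2 members were called lower in each of the EED-/-, SUZ12-/- and EZH2-/-/EZH1-/- lines, since DPPA5 joined ZFP42. In the time course a pseudocount of 0.1 put 1 member past 3-fold lower at day 16, 1 at day 20, 3 at day 24 and 3 at day 28. With WT H1 as the reference, 2 members were higher at day 8 (TBX3 and KLF4) and 2 lower at day 24 (ZFP42 and DPPA3). Leaving out any of the 12 samples, with the lone sample of a line assumed to vary like the others, left each count of members within 1.5 times. Replicate numbers did not pair the samples: over 15 pairs of lines, correlations of deviations were -0.12 to 0.22, with 1 over 0.1. With a replicate block, 4 members were again called higher and 1 lower in each PRC2-null line, and all genes called higher in the mean contrast numbered 2578 instead of 2579. For that contrast, 4086 genes were called higher and 1507 lower with a pseudocount of 0.1, and 8370 and 4728 at FDR 5% without a fold limit, against 2579 and 972. In fits of only the 4 samples of the lines compared, the 2220 genes higher and 1081 lower in EZH2-/-/EZH1-/- cells against WT H1 became 801 and 306, the 635 and 217 in SUZ12-/- against EZH2-/-/EZH1-/- cells became 3 and 0, and the 676 and 493 in SUZ12-/- against EED-/- cells became 417 and 256. In those fits, 0 genes were called in EZH1-/- or EZH2-/- cells against WT H1 or in EZH2-/-/EZH1-/- against EED-/- cells. In EZH1-/- cells the 11 higher and 8 lower became 4 and 6 with the block, 143 and 60 at FDR 5% and 3 and 4 with plain eBayes. In EZH2-/- cells 0 became 6 and 6 at FDR 5%. Unknown depth limits genes near 1 TPM, such as KLF17, ESRRB and TFCP2L1.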

Other observations

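Some naive-associated genes were high at particular days of DOX withdrawal. They were picked after their values were seen, from 1 sample per day, so they are given as values only. NR0B1 was 0.23 TPM with DOX, 7.44 at day 16, 39.94 at day 20, 6.95 at day 24 and 14.95 at day 28, and no PRC2-null sample exceeded 7.84. FGF4, a growth factor of pluripotent cells, was 51.9 TPM at day 16, against 2.72 at day 12, 3.08 at day 20 and at most 4.84 in the retaining lines. TFAP2C, a factor of naive cells and trophoblast, was 3.77 TPM with DOX, 21.68 at day 8 and 25.72 at day 20, and SUSD2, a naive surface marker, was 6.56 TPM with DOX and 24.59 at day 24, against at most 14.61 and 9.73 in the PRC2-null lines. KLF8 was 29.34 TPM at day 20, 8.44 at day 24 and 49.38 at day 28. In the lines KLF8 was 4.18 to 8.22 TPM in the retaining samples and spread from 0.06 to 42.67 in the PRC2-null samples.

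The WNT-pathway repressor TCF7L1 was 75.26 to 125.11 TPM in the retaining lines and 26.81 to 44.64 in the PRC2-null lines. The sample with DOX had the highest value of all 19. TCF7L1 was 137.31, 117.38 and 96.91 TPM at days 8, 12 and 16. It was 43.09 at day 20, 79.94 at day 24, inside the retaining range, and 67.06 at day 28. CTNNB1, the WNT effector beta-catenin, was 159.51 to 205.51 TPM in the retaining and 212.02 to 466.53 in the PRC2-null lines. In the inducible line CTNNB1 was 88.56 TPM with DOX, below all retaining samples. It was 183.74 and 186.8 TPM at days 12 and 16, inside the retaining range, and 345.97 at day 28. Both were picked after their values were seen. TCF7L1 was called lower in each PRC2-null line against WT H1, and in the mean of the PRC2-null lines its log2 fold change of -1.47 (limma, adjusted p = 3.373e-07) missed the fold limit. CTNNB1 was not called in that mean. OOEP, an oocyte and early-embryo gene, was 0.26 to 0.88 TPM in the retaining samples and, like DPPA5, was listed at 0 in all PRC2-null samples.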
